A study of Arabidopsis thaliana with 8 samples.

Results

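The 45S ribosomal RNA genes of Arabidopsis thaliana were described in chromatin of seedlings: the 18S genes AT2G01010 and AT3G41768 and the 5.8S genes AT2G01020 and AT3G41979, at the left end of chromosome 2 and in the pericentromere of chromosome 3. All windows of 1000 bp, placed every 500 bp, that overlap these 4 genes or the 10 kb on each side were taken. These were 78 of 238296 windows, 32 on chromosome 2 and 46 on chromosome 3, and 12 of them overlap the genes. Touching windows share 500 bp and hence counts. Window 1 to 1000 of chromosome 2, with 0 to 5 counts per library, did not pass the filter on low counts, so 77 windows were tested. Positions are those of TAIR10.

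The study mapped MBD7, which belongs to the methyl-CpG-binding domain (MBD) proteins, by chromatin immunoprecipitation (ChIP) with antibodies to the Myc tag and sequencing. WT plants, whose sample names give a 35S-SUC2 transgene, were set beside the line MBD7-5, whose genotype is proMBD7::gMBD7:4xMYC, that is, a genomic MBD7 construct with 4 Myc tags behind its own promoter. Seedlings were 14 days old in all groups, and each genotype gave 2 ChIP and 2 input libraries, the latter of chromatin before precipitation. WT plants carry no Myc-tagged protein according to their label, MBD7-5 is a single line, and the labels name an Invitrogen antibody for WT ChIP and a Millipore antibody for MBD7 ChIP, so genotype and antibody cannot be told apart between the ChIP groups.

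In plants the 45S genes lie in long tandem arrays, the nucleolus organizer regions, and RNA polymerase I transcribes each unit into a precursor that holds the 18S, 5.8S and 25S RNAs between transcribed spacers. Intergenic spacers with repeated elements and promoter sequence separate the units. Many units are silent in a given cell, and silent units carry dense cytosine methylation, the mark that several MBD proteins bind. The annotation used holds no separate 25S gene at these loci. A reference assembly shows few of the copies, so a window collects reads from copies placed elsewhere in the arrays, and the number of copies and the signal per copy cannot be told apart.

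The loci could not be separated over the genes themselves. Of 32 windows of chromosome 2 that were paired with the chromosome 3 window at the same place in the unit (29 bp apart), 13 had counts within 10% of their partner in each of the 8 libraries. They form 1 stretch from the window starting at 2501 to the one starting at 8501, which covers 18S, 5.8S and the following bases. The count ratio of the 18S windows, chromosome 2 over chromosome 3, lay between 0.977 and 0.986. At the next window, from 9001, it dropped to between 0.112 and 0.277. Values at both loci within the stretch are therefore 1 measurement seen at both places, whereas the outer windows of the loci differ.

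**Figure D1:**
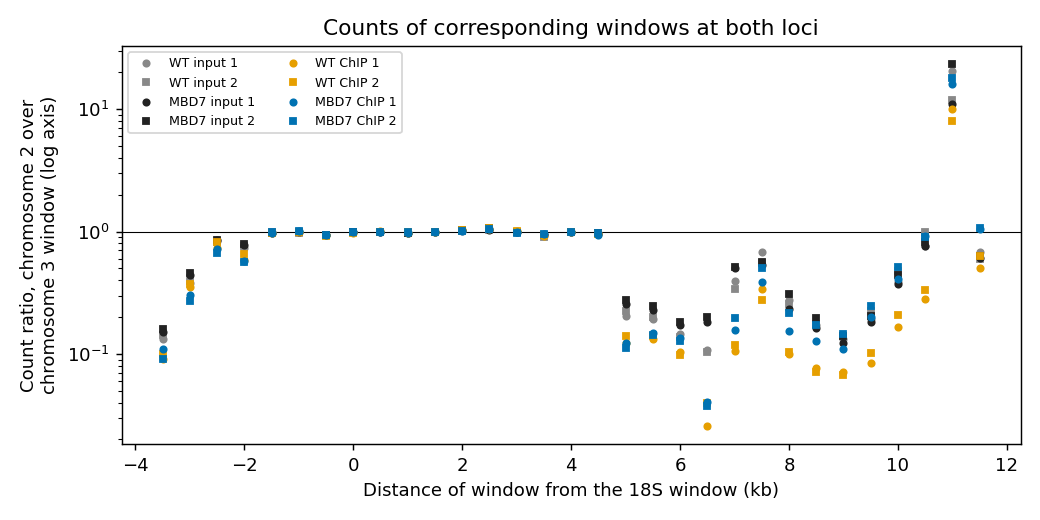
Count of each chromosome 2 window divided by the count of the paired chromosome 3 window (log axis) against the distance from the 18S window in kb. Points are the 8 libraries; they lie close to 1 from the window starting at 2501 to that starting at 8501 and spread apart outside it.

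Library totals ranged from 4971029 counts in WT ChIP to 31459707 in WT input, and the median window held only 4 and 3 counts in the WT ChIP libraries. The input libraries showed the transgenic line by its MBD7 gene (AT5G59800), with scaled counts (cpm) of 12.1 and 12.8 in the WT libraries and 95.7 and 95.4 in the MBD7-5 libraries. The labels do not state that replicates are separate cultures, and p-values then measure only variation among these libraries, possibly technical.

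The 78 windows took a larger share of every ChIP library than of every input library. Their share was 1.16% and 1.25% in WT input, against 0.738% and 0.746% in MBD7 input. It was 3.11% and 2.72% in WT ChIP and 3.00% and 3.75% in MBD7 ChIP. The ChIP groups overlapped, while both MBD7 input libraries lay below both WT input libraries. The median count of the 12 gene windows was 46.9 and 51.2 times that of the median window in WT input, but 32.5 and 33.3 times in MBD7 input.

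**Figure D2:**
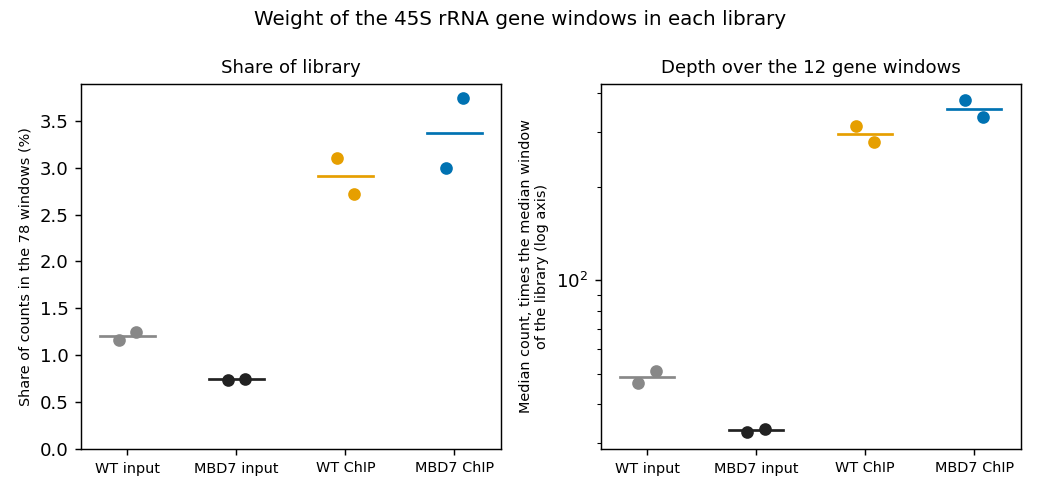
Left, percent of each library's counts in the 78 windows; right, median count of the 12 gene windows in units of the library's median window (log axis). Points are libraries and bars are means of 2; the ChIP groups overlap in share, and MBD7 input lies below WT input in both panels.

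The first comparison asked where chromatin was recovered with tagged MBD7. All 4 rRNA genes were higher in MBD7 ChIP than in MBD7 input, by log2 3.58 to 3.71. The gene AT2G01010 had 378 and 387 cpm in MBD7 input and 5464 and 4553 cpm in MBD7 ChIP, summed over the 6 windows that overlap it. The groups lay far apart, with a log2 difference of 3.71 ± 0.17 (SE; adjusted p = 2.03e-11 by edgeR's quasi-likelihood test, Benjamini-Hochberg adjusted over all genes). The gene AT3G41979 had 118 and 115 cpm in MBD7 input and 1545 and 1237 in MBD7 ChIP, a difference of 3.58 ± 0.16. AT2G01020 differed by 3.59 ± 0.17 and AT3G41768 by 3.66 ± 0.17. Of all 37886 genes tested, 16.8% were called higher in this comparison.

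Each of the 77 windows was higher in MBD7 ChIP than in MBD7 input, with adjusted p from 1.21e-20 to 3.71e-09, against 18.1% of all windows tested. Their log2 differences ran from 1.99 to 4.96 with a median of 3.21, where the median of all windows was -0.10. With scaling by library size alone, where all windows moved by -2.06, 69 windows were called higher, and 3 on chromosome 2 starting at 10501, 11001 and 12001 turned negative. Under this scaling 3772 of all 232963 windows were called higher. By size of the difference, 27 of the 77 stood among the top 100 windows of the genome, the best at rank 2. In WT ChIP against WT input 6 did so. In MBD7 ChIP against WT ChIP 0 stood among the top 1000, with the best at rank 9392. These ranks are not on a like scale between comparisons. Log2 differences of all windows reached 5.06 in MBD7 ChIP against MBD7 input and 10.7 between the ChIP groups.

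The signal was not even along the unit. The window that lies within 18S at chromosome 3 (14198001 to 14199000) had 38.2 and 41.7 cpm in MBD7 input and 408 and 356 cpm in MBD7 ChIP, a log2 difference of 3.26 ± 0.20. Far higher levels lay in a pair of peaks 10 kb apart on either side of the genes, over AT3G00660 and AT3G06365, both annotated as miscellaneous RNA. The window 14203501 to 14204500, which held the most input counts, had 290 and 303 cpm in MBD7 input and 8130.2 and 9949 cpm in MBD7 ChIP. The difference there was 4.93 ± 0.26, and it was 4.96 ± 0.26 in the window 14193501 to 14194500 of the upstream peak. The inputs had their highest levels in the same peaks. At chromosome 2 the highest difference was 4.46 ± 0.23 in the window 10001 to 11000, and the lowest 1.99 ± 0.17 in the next window, from 10501.

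**Figure D3:**
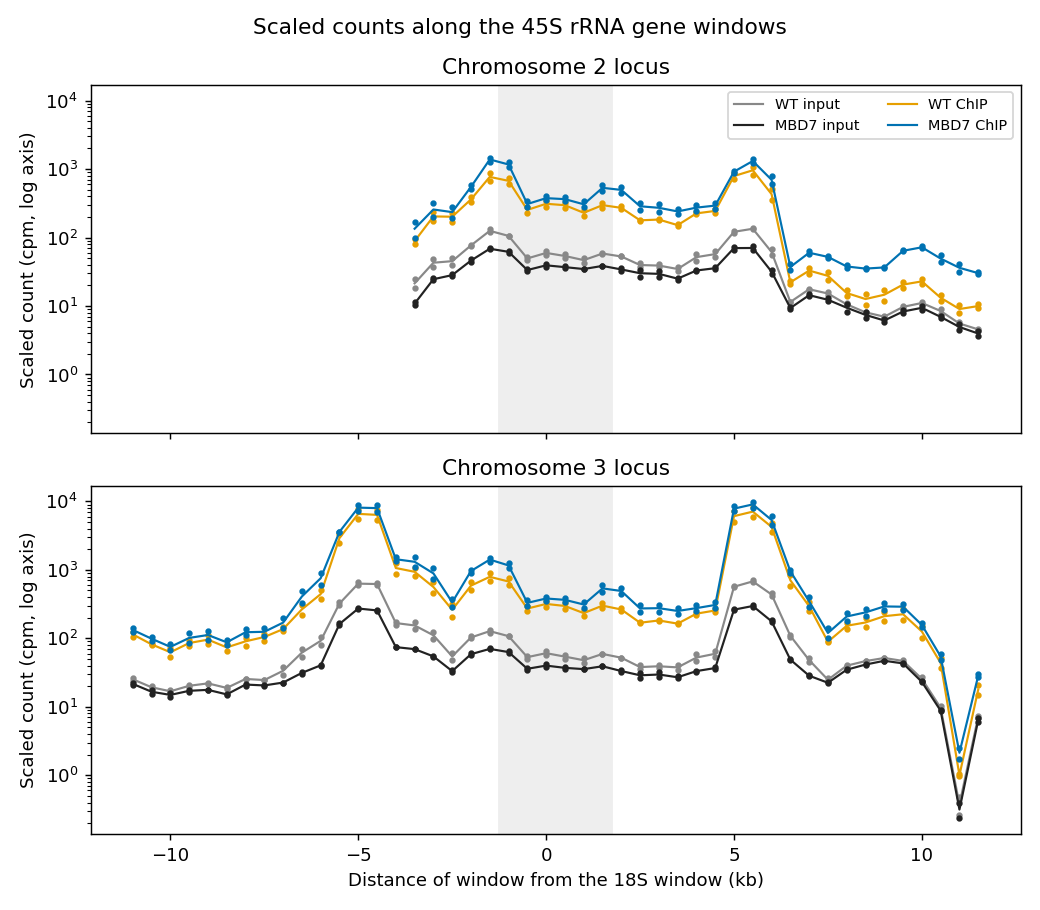
Scaled counts (cpm, log axis) of the tested windows against the distance of the window from the 18S window in kb, for chromosome 2 (top) and chromosome 3 (bottom). Points are libraries, lines are means of 2, and the shaded span holds the windows that overlap the 18S or 5.8S genes; both ChIP groups lie above both inputs, and all 4 groups peak in the same spacer windows of chromosome 3.

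WT ChIP, from plants without a tagged protein, was compared with WT input to measure what precipitation with its antibody recovered in such plants. The rRNA genes were high here as well. AT2G01010 had 575 and 616 cpm in WT input and 3912 and 3282 cpm in WT ChIP, a log2 difference of 2.59 ± 0.16 (SE; adjusted p = 6.09e-09 by edgeR's quasi-likelihood test, Benjamini-Hochberg adjusted). AT3G41979 had 166 and 176 cpm in WT input and 1003 and 859 in WT ChIP, a difference of 2.45 ± 0.16. AT2G01020 differed by 2.46 and AT3G41768 by 2.60, and all 4 were called, against 7.63% of all genes called higher.

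Of the 77 windows 72 were higher in WT ChIP than in WT input, against 5.13% of all windows. Their log2 differences ran from 0.56 to 3.43, with a median of 2.22 against -0.09 for all windows. The peak window 14203501 to 14204500 had 703 and 655 cpm in WT input and 8251 and 5933 in WT ChIP, a difference of 3.38 ± 0.24. The highest value was 3.43 ± 0.24 in the window from 14203001. The low end was the outer part of the chromosome 2 locus, where the window 12001 to 13000 had 10.9 and 10.3 cpm in WT input and 16.96 and 13.99 in WT ChIP, a difference of 0.56 ± 0.22 that did not pass. With scaling by library size alone, 13 outer windows turned negative, 11 of chromosome 2 from the start 10501 on and the last 2 of chromosome 3, relative to a shift of all windows by -1.64.

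MBD7 ChIP was then set against WT ChIP, from plants without a tagged protein. The labels name different antibodies for these groups, so WT ChIP may not hold the background of the MBD7 precipitation. The difference between the inputs is not subtracted here. All 77 log2 differences were positive, from 0.21 to 1.98 with a median of 0.45 against 0.16 for all windows, but 20 turned negative when the fit held the ChIP groups alone, 3 with scaling by library size alone and 5 without MBD7 ChIP replicate 1. Of the 77 windows 30 were called higher, 19 on chromosome 2 and 11 on chromosome 3, against 5.78% of all windows. The count rested on single libraries: it was 13 without MBD7 ChIP replicate 1, 15 without WT ChIP replicate 2 and 18 without either MBD7 input library. With the ChIP groups alone it was 8, where 5000 of all 102883 windows tested were called higher. In 12 windows the call lasted whichever library was left out, 11 of them on chromosome 2.

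The sums over the rRNA genes differed little between the ChIP groups. Those of AT2G01010, over 6 windows, and AT3G41768, over 5, also take in windows mostly outside 18S. The 6 include both windows of AT2G01020, and that from 5501 has only 13 bp of 18S, so the genes are not separate results. The chromosome 2 windows from 4001 and 4501, wholly within 18S, differed by 0.27 ± 0.19 and 0.29 ± 0.19 and were not called. AT2G01010 was higher by 0.48 ± 0.15 (adjusted p = 0.0454), AT2G01020 by 0.58 ± 0.15 (adjusted p = 0.0157) and AT3G41979 by 0.58 ± 0.15 (adjusted p = 0.0156), while AT3G41768, by 0.41 ± 0.15, was not called (adjusted p = 0.0845, all from edgeR's quasi-likelihood test, Benjamini-Hochberg adjusted over genes, of which 8.93% were called higher). AT3G41768 had 3415 and 2852 cpm in WT ChIP and 4550.0 and 3806 in MBD7 ChIP. None of these 3 calls lasted in every fit. They were lost without MBD7 ChIP replicate 1, where the differences were 0.42, 0.49 and 0.49, and without MBD7 input replicate 1 or 2. That of AT2G01010 was lost without WT ChIP replicate 2 (0.44) or either WT input library, and that of AT2G01020 without WT ChIP replicate 2 (0.55). AT3G41768 was called without WT ChIP replicate 1 (0.65) or MBD7 ChIP replicate 2 (0.63).

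Within the unit the difference between the ChIP groups followed position. The window within 18S at chromosome 3 had 348 and 288 cpm in WT ChIP and 408 and 356 in MBD7 ChIP, and its difference of 0.26 ± 0.19 was not called. In the spacer peak window 14203501 to 14204500 the difference was 0.35 ± 0.22 and was not called either, with MBD7 ChIP libraries at 8130.2 and 9949 cpm and the higher WT ChIP library between them. Called windows formed a run of 3 before and into 18S (chromosome 3, 14196001 to 14198000, log2 0.71 to 0.84) and a run of 5 from 5.8S onward (14199501 to 14202500, log2 0.60 to 0.90). The same places on chromosome 2 gave runs of 3 from 2001 to 4000 (0.61 to 0.85) and of 3 from 5501 to 7500 (0.68 to 0.87). These windows lie in the stretch of shared reads, except that from 2001, whose counts were 0.567 to 0.792 times those of its partner. Of the windows in these 4 runs only those from 14200001 on chromosome 3 and 6001 on chromosome 2 kept the call whichever library was left out, and neither run before 18S held such a window. Single windows were also called, from 14192001, 14195001 and 14209501 on chromosome 3 and from 7501 on chromosome 2.

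**Figure D4:**
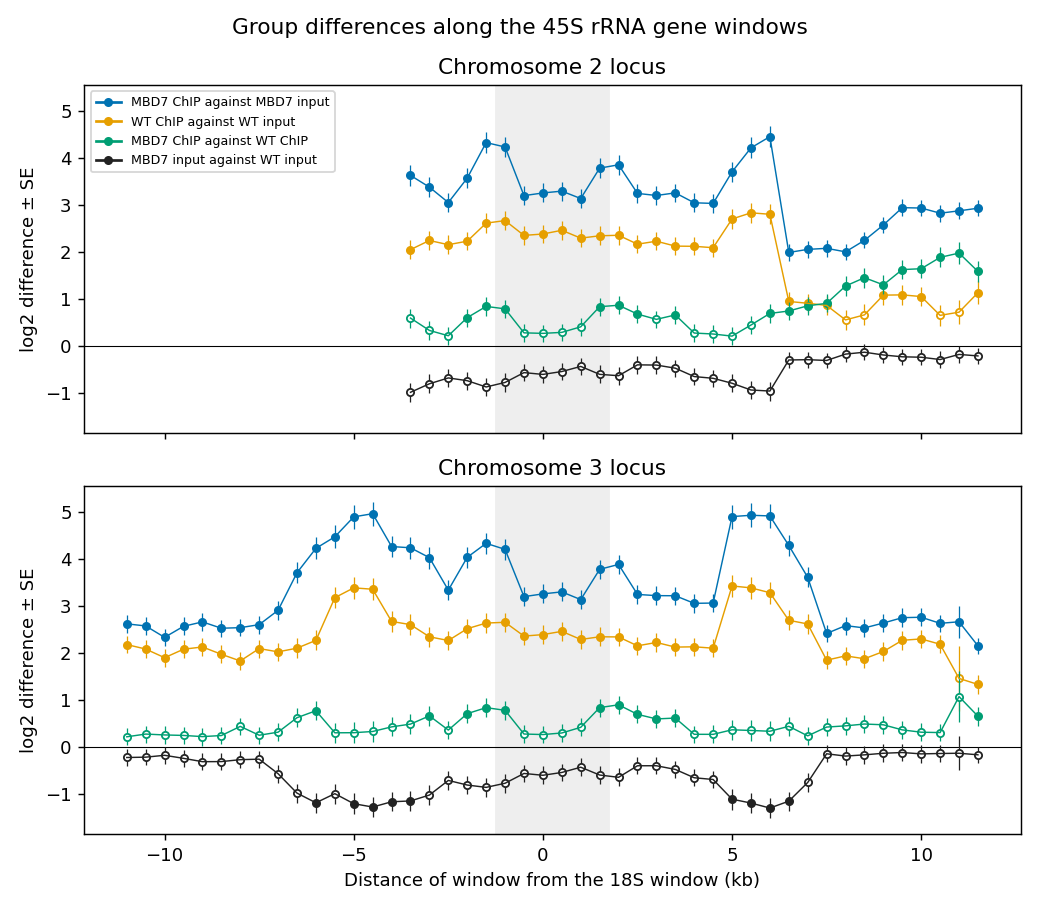
Log2 differences with SE of the tested windows against the distance of the window from the 18S window in kb, for 4 comparisons at chromosome 2 (top) and chromosome 3 (bottom). Filled points passed an adjusted p of 0.05, and the shaded span holds the windows that overlap the genes. MBD7 ChIP against WT ChIP is larger before 18S, just past 5.8S and along the outer windows of chromosome 2. MBD7 input against WT input is lowest in the spacer peaks of chromosome 3.

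Counts were also divided by the count of the 18S window of the same locus and library, which removes any scaling between libraries. The windows described in this way were picked after their values were seen, and no test was made. The window from 14196501, before 18S, stood at 3.71 and 3.69 times the 18S window in MBD7 ChIP. It stood at 2.59 and 2.36 in WT ChIP, 2.36 and 1.87 in WT input, 1.81 and 1.71 in MBD7 input, so MBD7 ChIP was above all 6 other libraries, and WT ChIP in turn lay above both inputs, though its lower library was barely above the higher WT input library. The 5.8S window from 14199501 stood at 1.46 and 1.34 times 18S in MBD7 ChIP, against 0.928 and 0.963 in WT ChIP, 1.05 and 0.905 in WT input, 1.02 and 0.936 in MBD7 input. Here MBD7 ChIP lay above the other 3 groups, which overlapped. The window from 14199001 holds the same 164 bp of 5.8S with the end of 18S, and there MBD7 ChIP did not stand apart. It was at 0.843 and 0.788 in MBD7 ChIP, 0.740 and 0.727 in WT ChIP, 0.782 and 0.795 in WT input, 0.937 and 0.844 in MBD7 input. The window from 14200001, past 5.8S, stood at 1.32 and 1.24 in MBD7 ChIP, against 0.790 to 0.922 in the other libraries. The spacer peak window from 14203501 was 19.9 and 28.0 times 18S in MBD7 ChIP and 23.7 and 20.6 in WT ChIP, so these groups overlapped. It was 12.4 and 10.1 in WT input against 7.60 and 7.26 in MBD7 input, and both ChIP groups lay above both inputs.

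**Figure D5:**
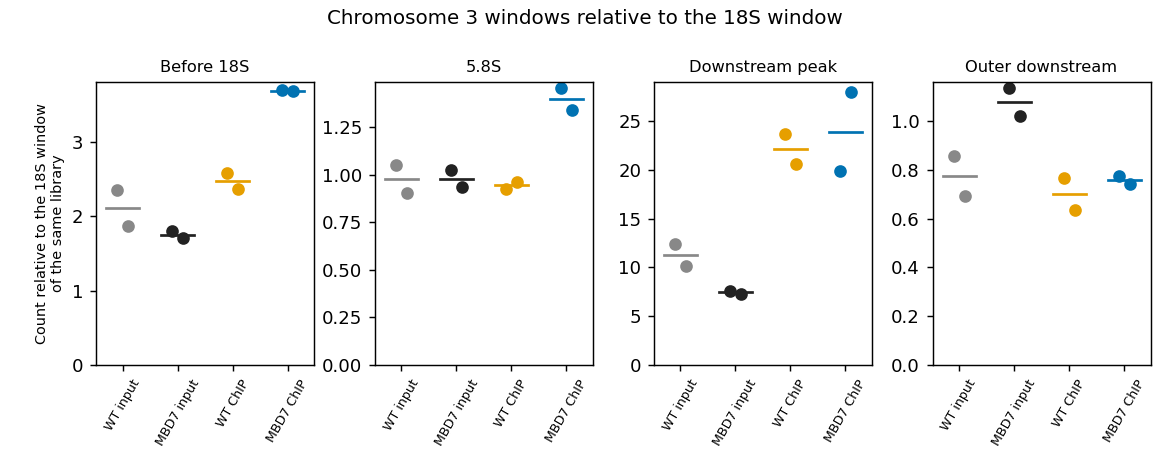
Counts of 4 chromosome 3 windows divided by the count of the 18S window of the same library, with axes from 0. Points are libraries and bars are means of 2. MBD7 ChIP stands above all other groups before 18S and in the window from 14199501, which holds 5.8S and the bases after it. It overlaps WT ChIP at the downstream peak, and lies near WT ChIP and WT input in the outer downstream window from 14207501.

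The outer windows of the chromosome 2 locus, over part of the pseudogene AT2G01022 and over AT2G01024, differed in this respect. From the window starting at 10501 outward both ChIP groups had their lowest levels on that chromosome, and from 11501 outward the differences between them, 0.91 to 1.98, were above those of all other tested chromosome 2 windows. A run of 12 windows from 10001 to 16500 was called higher in MBD7 ChIP than in WT ChIP, with log2 differences of 0.70 to 1.98. The window 15001 to 16000 had 5.28 and 5.82 cpm in WT input, 10.3 and 7.81 in WT ChIP, 4.40 and 5.47 in MBD7 input and 40.6 and 31.7 in MBD7 ChIP. MBD7 ChIP lay well above the other 3 groups, which lay close together, and the difference between the ChIP groups was 1.98 ± 0.23 (adjusted p = 8.53e-09, edgeR's quasi-likelihood test, Benjamini-Hochberg adjusted). The WT ChIP libraries held only 40 and 24 counts in this window. The sum over AT2G01024 was higher in MBD7 ChIP than in WT ChIP by 1.63 ± 0.15, whereas that over AT2G01022, which reaches into the high windows from 9501, had a difference of 0.48 ± 0.16 and was not called (adjusted p = 0.0531 by the same test).

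The interaction of genotype and precipitation asked whether ChIP over input differed between the lines. It was higher in the MBD7 line for all 4 genes, by log2 1.12 ± 0.21 for AT2G01010 (adjusted p = 0.00161), 1.13 ± 0.21 for AT2G01020, 1.06 ± 0.21 for AT3G41768 (adjusted p = 0.0026) and 1.13 ± 0.21 for AT3G41979, by edgeR's quasi-likelihood test, Benjamini-Hochberg adjusted, against 8.87% of genes called higher. Of the 77 windows 61 were called higher, all 31 tested on chromosome 2 and 30 of 46 on chromosome 3, against 6.54% of all windows. The differences ran from 0.43 to 2.17 with a median of 1.09, where the median of all windows was 0.15. By size 0 of the 77 stood among the top 1000 windows, the best at rank 7965, where log2 differences of all windows reached 11.6. The count was 35 without MBD7 input replicate 1 and 36 without WT input replicate 2, and 35 windows passed whichever library was left out. Of the 12 windows over the genes 4 did so, and the windows wholly within 18S lost the call in some of these fits.

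The interaction is the difference between the ChIP groups minus that between the inputs, and both parts were of similar size over these windows, with medians of 0.45 and -0.56. In 37 of the 61 called windows the input difference was the larger one. The window 14204001 to 14205000 of the spacer peak had an interaction of 1.63 ± 0.31, made of 0.33 between the ChIP groups and -1.30 between the inputs. The opposite held in the outer chromosome 2 window 14501 to 15500, with the highest interaction, 2.17 ± 0.28, made of 1.89 between the ChIP groups and -0.29 between the inputs. On chromosome 3 the windows that did not pass were 8 from 14187001 to 14191500 and 8 from 14205501 to 14210000, the outer flanks of the locus. The lowest interaction, 0.43 ± 0.26, was in the window from 14188001.

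The inputs of the lines were compared directly, since they measure the DNA before precipitation. All 77 log2 differences of MBD7 input against WT input were negative, from -1.30 to -0.12 with a median of -0.56 against 0.00 for all windows. With scaling by library size alone 14 of them, all in the outer parts of the loci, turned positive, relative to a shift of all windows by 0.21. The window from 14209001, with 9 to 22 counts per input library, turned positive without MBD7 input replicate 2 and without WT input replicate 2. Only 9 windows were called lower, all on chromosome 3, against 0.00901% of all windows. They were the window from 14192001 (-1.19 ± 0.21, adjusted p = 0.00615 by edgeR's quasi-likelihood test, Benjamini-Hochberg adjusted) and both spacer peaks, 4 windows from 14193001 to 14195500 (-1.28 to -1.15) and 4 from 14203001 to 14205500 (-1.30 to -1.11).

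This count depended on the fit. It was 0 without MBD7 input replicate 1 or 2, where each fit leaves that group 1 library, and 19 or 20 without a ChIP library. DESeq2 called 39 of these windows lower and 506 of all windows, where 216798 of 232963 had no adjusted p. A fit of the input groups alone called 43 of these windows lower, and 1552 of all 233229 tested. At the genes, AT2G01010 had 575 and 616 cpm in WT input against 378 and 387 in MBD7 input, and its difference of -0.64 ± 0.15 was not called (adjusted p = 0.318). AT2G01020 and AT3G41979 differed by -0.55 and AT3G41768 by -0.64, also not called, where 0.00528% of genes were called lower. That share is 2 genes, AT3G00660 (-1.22) and AT3G06365 (-1.10), both at the chromosome 3 locus itself. Both MBD7 input libraries lay below both WT input libraries for each gene. The genes share reads, however, and the share of all genes separated in this way is not given here. The level of the spacer peak window from 14203501 relative to 18S, given above without a test, was also lower in both MBD7 input libraries than in both WT input libraries.

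Set beside other windows with over 10 times the median input, of which there were 1849, the rRNA gene windows had the higher median in each comparison of ChIP with input or with ChIP, and the lower one between the inputs. The medians of those windows were 2.10 for MBD7 ChIP against MBD7 input, 1.34 for WT ChIP against WT input, 0.19 between the ChIP groups and -0.20 between the inputs. The pericentromere of chromosome 3 around the locus, 13461 windows tested between 10 and 17 Mb, had medians of 1.03, 0.31, 0.58 and -0.10. The medians of the rRNA gene windows, 3.21 and 2.22, were higher for ChIP over input of both lines, while their 0.45 between the ChIP groups lay below the 0.58 of the pericentromere. These are descriptions, and the sets were not tested against each other.

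The genes outside both loci most like the rRNA genes over the 8 libraries, by the root mean square difference of centred log2 cpm among 30266 candidates, were AT1G40104, AT2G08986, AT2G07981, MEE38 (AT3G43160) and AT4G06700, at 0.185 to 0.262. AT1G40104 had log2 differences of 3.43 for MBD7 ChIP against input, 2.72 for WT ChIP against input, 0.11 between the ChIP groups and -0.60 between the inputs. The input differences of all 5 genes lay between -0.60 and -0.52, beside -0.64 to -0.55 for the rRNA genes. The input libraries entered the choice of these genes, so this likeness follows from the choice and is no separate result. The members themselves lay within 0.0424 to 0.0487 of their mean.

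Genes that act on rRNA genes were counted from their own windows. Of 16 genes for silencing and chromatin of rRNA genes, 1 was higher and 5 were lower in MBD7 ChIP than in MBD7 input. Of all genes 16.8% were higher and 13.4% lower. DCL3, a Dicer-like nuclease that makes small RNAs, was higher by 0.54 ± 0.14. The maintenance methyltransferase gene MET1 (-0.45), the chromatin remodeller gene DDM1 (-0.49), MBD10 (-0.58), the chromatin assembly factor gene FAS1 (-0.44) and the nucleolin gene NUC2 (-0.71 ± 0.19) were lower. DESeq2 called the higher gene but 0 of the 16 lower. NUC2 had 25.7 and 35.1 cpm in WT ChIP and 15.1 and 9.49 in MBD7 ChIP, and was also lower in that comparison, by -1.29 ± 0.26 (adjusted p = 0.00209, edgeR's quasi-likelihood test, Benjamini-Hochberg adjusted), where 3.0% of genes were lower. The 6 genes for RNA polymerase I and pre-rRNA processing had log2 differences from -0.38 to 0.05 in MBD7 ChIP against input. By edgeR 0 of the 6 passed, 1 was lower at an unadjusted p under 0.05, and DESeq2 also called 0.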

How the data were processed

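Counts of reads per window of 1000 bp were deposited by the authors as whole numbers, not normalized, in windows every 500 bp of chromosomes 1 to 5. The tools named, per the submitters' processing notes, are Bowtie2, SAMtools and featureCounts, with the build TAIR10. Their versions and how multiply aligned or duplicate reads were handled: not given in the sources used here. For repeated genes such handling decides how counts divide between copies. Per the labels' protocols, 3 g of seedlings grown at 23 °C with 16 h of light were fixed in 1% formaldehyde and sonicated to about 500 bp. The labels' protocol text names only the Invitrogen antibody.

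Groups and replicate numbers came from sample titles. All 8 libraries were fitted as 4 groups in R 4.3.3 with edgeR 4.0.16: a filter by filterByExpr, TMM factors and the two-sided quasi-likelihood test, Benjamini-Hochberg adjusted at 0.05, over 232963 windows, and over sums of the windows that overlap each of 37886 genes. TMM factors ran from 0.447 to 2.08 and take most windows as unchanged. Log2 differences are fitted values, and cpm uses TMM factors. Neighbouring genes share windows. The fit was tested on simulated data, with 100 windows changed 2-fold and 100 changed 4-fold in MBD7 ChIP, drawn from all tested windows. It recovered 64 and 100 of them for MBD7 ChIP against input. For the interaction it recovered only 7 and 76, so a window not called there may still differ. All simulated windows had 1 common dispersion, and the median window holds far fewer counts than the median rRNA gene window. These rates therefore do not describe the rRNA gene windows. A RefSeq table of TAIR10.1 gave gene names and overlaps, and none of its coordinates is printed. Tables were made with pandas 2.3.3 and plots with matplotlib 3.10.9 in Python 3.11.15.

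The members, lists and alternatives were chosen with earlier results of these data known. Windows were named as those with the largest overlap with 18S or 5.8S, the most input counts, the outermost place, or the highest or lowest log2 difference in a comparison at each locus, others being named as runs of called windows. The 5 most similar genes had at least 100 counts per library on average. Alternatives were other size factors (also DESeq2 1.42.0), no filter, fits of fewer groups or libraries and a replicate block. The gene lists were counted whole.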

Additional observations from a re-analysis of the deposited data

Results flagged for a closer look

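ChIP over input differed between the lines, by the interaction test of edgeR's quasi-likelihood fit, at the 4 rRNA genes and at 21 of the named windows, with the larger log2 difference in the MBD7 line. Of all windows 6.54% were called higher. Some windows were named as the highest or lowest in these same comparisons, and all 77 interaction values were positive. The count and the direction are therefore no separate result. For the genes the difference of the differences was 1.12 (AT2G01010), 1.13 (AT2G01020), 1.06 (AT3G41768) and 1.13 (AT3G41979).

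Named windows over the genes, with shared reads, had 0.87 (2:4001), 0.84 (2:5001), 0.83 (2:4501), 0.87 (3:14198001) and 0.85 (3:14199001). In the spacer peaks of chromosome 3 the values were 1.61 (3:14193501), 1.48 (3:14203001), 1.54 (3:14203501) and 1.63 (3:14204001), and the window 3:14192001 had 1.96. The left end of chromosome 2 had 1.58 (2:501). Downstream on chromosome 2 the values were 1.00 (2:9001), 1.38 (2:9501), 1.65 (2:10001), 1.04 (2:10501), 1.45 (2:12001), 1.59 (2:12501), 2.17 (2:14501), 2.16 (2:15001) and 1.80 (2:15501). The last window of chromosome 3, 3:14209501, had 0.82. Of the 21 windows 13 passed whichever library was left out. The other 8, which are the 5 over the genes and 2:9001, 2:10501 and 3:14209501, lost the call in at least 1 of these fits. The input differences that enter these values were negative at each of them, and their part in the result was not tested beyond the split given with the interaction.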

How the results depend on the processing

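Under library size alone, where all windows moved by -2.06 (MBD7 ChIP against input), -1.64 (WT ChIP against input), -0.21 (between ChIP groups), -0.41 (interaction) and 0.21 (between inputs), 60 windows were higher and 11 lower in WT ChIP than in WT input, and 27 were lower in MBD7 input. Of all 232963 windows tested, 1638 were higher and 193907 lower in WT ChIP than in WT input under this scaling, and 120 were lower in MBD7 input. AT2G01010 then missed the call between the ChIP groups (0.24) and passed between the inputs (-0.53), as did AT3G41768 (-0.53). Named windows turned to -0.0781 (2:10501, MBD7 ChIP against input), -0.52 (2:15501), -1.10 (2:12001) and -0.33 (3:14209501; all 3 WT ChIP against input), -0.00722 (3:14187001, between ChIP groups), and 0.0686 (2:12501), 0.0307 (3:14209501) and 0.0821 (3:14207501; all 3 between inputs). The cause was not tested.

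With only the groups compared, 8 windows were higher between the ChIP groups, AT2G01010 (0.48), AT2G01020 (0.58) and AT3G41979 (0.58) missed the call, and 4 named windows turned to -0.0277 (2:4001), -0.0813 (2:9001), -0.0367 (3:14198001) and -0.0841 (3:14187001), with all windows moved by -0.20. Between the inputs it called 43 windows and all 4 genes (-0.63, -0.54, -0.63 and -0.54). DESeq2 called AT3G41768 between the ChIP groups (0.47), and between the inputs 39 windows and all 4 genes (-0.65, -0.56, -0.65 and -0.56). Windows lower in MBD7 input numbered 15 with RLE size factors and 18 with TMM without copy-rich windows, where 42 and 61 of all 232963 windows were lower. Over windows that overlap the genes alone the counts were 12, 12, 4 and 12 higher (MBD7 ChIP and WT ChIP against input, between ChIP groups, interaction) and 0 lower between inputs. Over every other window the share in MBD7 input was 0.750% and 0.760%.

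Replicate numbers did not pair the libraries (correlations of deviations 0.00036 to 0.054). With the replicate as a block 15 windows were lower in MBD7 input, and no other count or gene call changed by over 1.5 times or crossed the threshold.

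Leaving out 1 library at a time gave 77 (MBD7 ChIP against input), 68 to 74 (WT ChIP against input), 13 to 36 (between ChIP groups) and 35 to 66 (interaction) windows higher, and 0 to 20 lower between inputs. Between the ChIP groups the genes had 0.42 to 0.71 (AT2G01010), 0.49 to 0.82 (AT2G01020), 0.36 to 0.65 (AT3G41768) and 0.49 to 0.82 (AT3G41979). In fits that leave a group 1 library, that library is taken to vary like the others. WT ChIP had the fewest counts per window.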
